A study of Mus musculus with 8 samples.

Results

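Imprinted genes are expressed from only 1 of the 2 parental copies, and several of them set how fast fetal tissues grow. The genes described here are 10 of the best-known growth-related ones: Igf2, H19, Dlk1, Meg3, Peg3, Mest, Plagl1, Cdkn1c, Grb10 and Ndn. They were chosen by name, and each was read from the probe set that carried its symbol alone. Of the 10 genes, 9 were measured in this way among 19938 genes in all, each by 1 probe set. H19 is not analysed here.

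RNA was measured in 8 primary osteosarcomas of C57Bl6 mice, each on its own 1-colour array. In 4 tumours, called shRNA OS, the p53 genotype is given as P53.1224, a transgenic short hairpin RNA against p53. The other 4, called Cre:lox OS, were P53fl/fl, with floxed p53 alleles. Each model held 3 Rbfl/+ tumours, with 1 floxed Rb allele, and 1 Rb+/+ tumour (shRNA OS replicate 2 and Cre:lox OS replicate 1). Of the shRNA OS tumours 3 came from the tibia and replicate 4 from the humerus. Of the Cre:lox OS tumours replicates 3 and 4 came from the tibia, replicate 2 from the humerus and replicate 1 from the scapula. All 8 are tumours with p53 targeted, so no normal bone is among them. The sources used here do not give the age of the mice, nor the promoter behind the hairpin or Cre.

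In the mouse, Igf2, Dlk1, Peg3, Mest, Plagl1 and Ndn are expressed from the paternal copy, and Meg3, Cdkn1c and, outside the brain, Grb10 from the maternal copy. Paternally expressed Igf2 promotes growth, while maternally expressed Grb10 and Cdkn1c restrain it. Most of these genes are highly expressed in the embryo and are turned down in many tissues after birth. Array values cannot show which parental copy an RNA came from.

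Values are log2 expression, computed by the authors with RMA (robust multi-array average), so a difference of 1 is a doubling. The array medians lay between 7.13 and 7.23, and each gene is compared only with itself across tumours. Igf2, Dlk1, Mest, Plagl1 and Grb10 were above the median of their own array in all 8 tumours. Cdkn1c was above it in 7, Meg3 in 4, Peg3 in 3 and Ndn in 2. How far each signal lay over background was not analysed here. One array, that of shRNA OS replicate 2, correlated less well with the others (mean r 0.941, against 0.961 to 0.968 for the other 7), so values without it are given where it carries a result. The osteoblast genes Col1a1, Col1a2, Ibsp and Alpl were well above the array median in every tumour, between 12.18 and 13.61. Tumours are mixed tissue, and fewer cells of a type cannot be told apart from less RNA per cell.

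The start regions of Plagl1, whose values separated the models, and of Grb10, which was low in 2 Cre:lox OS tumours, are shown. Imprinted genes are often marked by DNA methylation at CG dinucleotides close to a start site. The sequences are from RefSeq (GRCm38.p6) and cover 250 bases before to 50 after an annotated start. CG dinucleotides are in capitals. The Plagl1 region is chr10:13090582-13090881 on the plus strand. Grb10 has 2 listed regions on the minus strand, the upstream chr11:12037371-12037670 and the downstream chr11:12027922-12028221.
Plagl1: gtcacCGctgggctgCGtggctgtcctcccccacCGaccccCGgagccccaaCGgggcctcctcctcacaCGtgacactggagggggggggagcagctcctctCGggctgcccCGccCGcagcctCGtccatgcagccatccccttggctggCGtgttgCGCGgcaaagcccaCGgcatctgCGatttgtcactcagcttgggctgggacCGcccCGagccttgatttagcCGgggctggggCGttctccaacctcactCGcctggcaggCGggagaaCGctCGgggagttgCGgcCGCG
Grb10 upstream: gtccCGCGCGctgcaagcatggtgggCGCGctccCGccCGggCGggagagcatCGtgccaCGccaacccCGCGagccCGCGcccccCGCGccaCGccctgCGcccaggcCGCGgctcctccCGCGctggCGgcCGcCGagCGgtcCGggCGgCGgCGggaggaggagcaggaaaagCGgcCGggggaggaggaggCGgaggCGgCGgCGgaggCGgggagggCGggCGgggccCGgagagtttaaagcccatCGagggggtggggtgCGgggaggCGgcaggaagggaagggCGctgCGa
Grb10 downstream: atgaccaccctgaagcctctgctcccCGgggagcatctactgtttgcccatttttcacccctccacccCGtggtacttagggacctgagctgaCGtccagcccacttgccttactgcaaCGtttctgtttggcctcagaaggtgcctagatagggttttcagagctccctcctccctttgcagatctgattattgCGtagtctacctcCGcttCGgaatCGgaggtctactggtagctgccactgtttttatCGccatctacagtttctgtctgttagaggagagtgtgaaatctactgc
The Plagl1 region held 26 CG dinucleotides, and 16.9% of all 32851 listed start regions held as many. The upstream Grb10 region held 45 (1.93% held as many) and the downstream one 9 (45.8%), against a median of 7. Start regions were listed for 8 of the 10 genes, 15 in all. Among the 4 of Igf2 the number ran from 2 to 24, and among the 3 of Mest from 8 to 17. Methylation was not measured here, and a count of CG dinucleotides does not show whether a region is methylated on either parental copy. Which of the regions shown, if any, carries the imprint is not given in the sources used here.

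**Figure D1:**
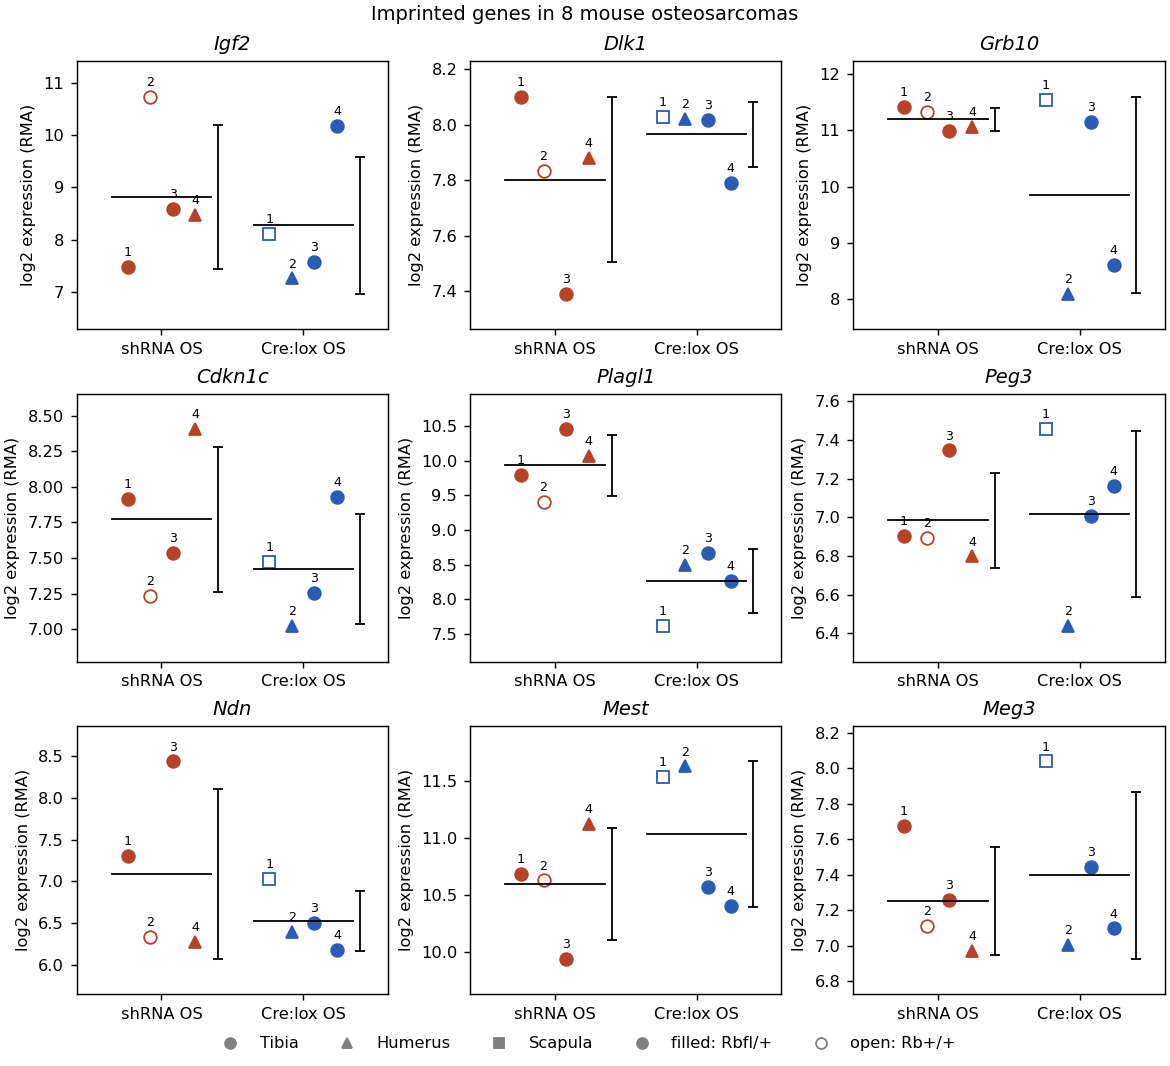
Log2 expression (RMA) of the 9 measured imprinted genes in 4 shRNA OS and 4 Cre:lox OS tumours. Numbers are replicates, symbols give the bone and the Rb genotype, horizontal lines are group means and bars are SD. Plagl1 separates the models, Grb10 is low in Cre:lox OS replicates 2 and 4, and Igf2 is high in shRNA OS replicate 2 and Cre:lox OS replicate 4.

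The first question was whether imprinted gene levels depended on how p53 was targeted, by hairpin or by floxed alleles. None of the 9 genes passed limma's test at an adjusted p of 0.05, a threshold that 0.0201% of the 19938 genes passed. At an unadjusted p under 0.05 there was 1 of the 9, Plagl1, against 9.63% of all genes (3.61% higher and 6.02% lower in shRNA OS). Plagl1 was also the 1 gene of the 9 whose groups did not overlap, which held for 5.44% of all genes (2% with shRNA OS higher and 3.44% with it lower). The 9 genes had a median difference of 0.35, shRNA OS minus Cre:lox OS, with 5 means higher and 4 lower, beside 0.0090 over all genes, of which 51.9% had a higher and 48.1% a lower mean.

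Plagl1, also known as Zac1, encodes a zinc finger transcription factor that in the mouse regulates other imprinted genes and restrains cell growth. It measured 9.80, 9.41, 10.46 and 10.07 in shRNA OS replicates 1 to 4, against 7.61, 8.49, 8.67 and 8.26 in Cre:lox OS replicates 1 to 4. Every shRNA OS tumour was above every Cre:lox OS tumour, and the scapular tumour was the lowest of all. The mean was 9.93 ± 0.44 in shRNA OS and 8.26 ± 0.46 in Cre:lox OS (SD, n = 4 each), a difference of 1.67 (SE 0.28, 95% interval 1.05 to 2.29), or 3.19-fold. By limma the unadjusted p was 1.44e-04, the 25th smallest of the 19938 genes, and the adjusted p was 0.109. An exact 2-sided permutation test over the 70 arrangements of the tumours gave p = 0.0286, the smallest it allows, unadjusted for the 9 genes so tested. The limma call is not stable: Plagl1 passed with Rb genotype as a covariate (adjusted p = 0.0292) and with array weights (adjusted p = 0.0419), and over all the other settings its adjusted p ran from 0.0741 to 0.318. The difference was 1.85 without shRNA OS replicate 2 and 1.42 in the 5 tibial tumours alone.

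The neighbours of Plagl1 on chromosome 10 did not share its split. Phactr2, next to it and imprinted in some mouse tissues, averaged 8.64 in shRNA OS and 8.24 in Cre:lox OS. Among the 10 measured genes on each side, the mean in shRNA OS was higher for 7 and lower for 13, with a median difference of -0.083. Of 12 measured fibroblast and mesenchymal progenitor markers 10 had a lower mean in shRNA OS, beside 48.1% of all genes. By limma 0 passed, and 5 were lower at an unadjusted p under 0.05, beside 6.02% of all genes. For 4 of the 12 the groups did not overlap, with shRNA OS lower, beside 3.44% of all genes. The average level of the 12 was 8.996 to 9.69 in shRNA OS and 9.71 to 10.62 in Cre:lox OS. Means were also lower in shRNA OS for 14 of 15 skeletal muscle markers, with average levels of 7.37 to 9.68 in shRNA OS and 7.70 to 9.80 in Cre:lox OS. They were lower for 9 of 10 macrophage markers, with average levels of 9.39 to 10.72 in shRNA OS and 9.91 to 10.99 in Cre:lox OS. Of these 2 lists 0 genes passed by limma, and both lists' levels overlapped between the models. The part of any of these markers in the Plagl1 difference was not tested.

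Grb10 encodes an adaptor protein that binds the insulin and IGF1 receptors and dampens their signal. It measured 11.42, 11.33, 10.99 and 11.06 in shRNA OS replicates 1 to 4, against 11.55, 8.09, 11.16 and 8.60 in Cre:lox OS replicates 1 to 4. The 4 shRNA OS tumours lay close together, and the Cre:lox OS tumours fell into a high and a low pair. The gap between the lowest of the 6 high tumours and the higher of the 2 low ones was 2.39. The low pair, Cre:lox OS replicates 2 and 4, were both Rbfl/+ and came from the humerus and the tibia, so neither label singles them out. Over all 8 tumours Grb10 varied more than 99.6% of genes by SD. Its mean was 11.20 ± 0.20 in shRNA OS and 9.85 ± 1.75 in Cre:lox OS (SD, n = 4 each). The difference of 1.35 (SE 0.71, limma adjusted p = 0.585) was within the spread of the Cre:lox OS tumours, and it was 0.77 without Cre:lox OS replicate 2.

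Cobl, which encodes an actin-nucleating protein and is the next gene in the Grb10 domain, was also lowest in the same pair of tumours. It measured 7.44, 7.39, 7.60 and 7.37 in shRNA OS replicates 1 to 4, against 7.39, 6.98, 7.30 and 7.02 in Cre:lox OS replicates 1 to 4. Ddc, in the same domain, was instead highest in Cre:lox OS replicate 2, at 6.82 against 5.64 to 6.12 in the other tumours. Ikzf1, also in the domain, was highest in Cre:lox OS replicate 4, at 8.47 against 6.72 to 8.26. Fignl1 was within the range of the other tumours in both. Averaged over the flanking genes, the neighbourhood on chromosome 11 deviated little. The mean deviation of the 20 flanking genes from their own averages was -0.10 in Cre:lox OS replicate 2 and -0.084 in replicate 4, where that of Grb10 was -2.44 and -1.92.

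**Figure D2:**
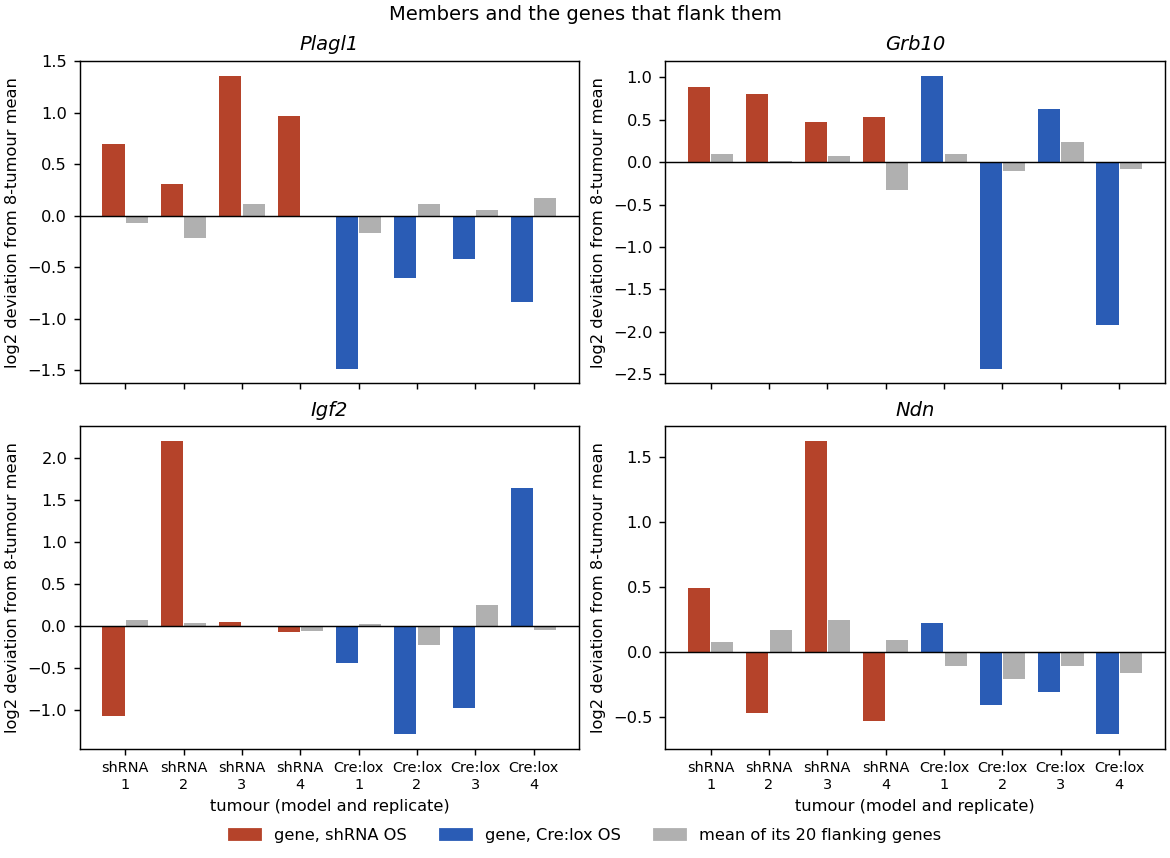
Deviation of Plagl1, Grb10, Igf2 and Ndn in each tumour from the gene's mean over the 8 tumours (log2, coloured bars), beside the mean deviation of the 20 measured genes that flank it (grey bars). The deviations of -2.44 and -1.92 for Grb10 in Cre:lox OS replicates 2 and 4 stand beside -0.10 and -0.084 for the flanking genes.

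Igf2 encodes insulin-like growth factor 2, a fetal growth factor that acts through the IGF1 and insulin receptors. It measured 7.47, 10.74, 8.59 and 8.46 in shRNA OS replicates 1 to 4, against 8.10, 7.25, 7.57 and 10.18 in Cre:lox OS replicates 1 to 4. Each model had 1 tumour far above its other 3, namely shRNA OS replicate 2 and Cre:lox OS replicate 4, both from the tibia. The highest and lowest tumours were 3.49 apart, or 11.2-fold. By SD Igf2 varied more than 99.5% of genes. The means of 8.81 ± 1.38 in shRNA OS and 8.28 ± 1.32 in Cre:lox OS (SD, n = 4 each) differed by 0.54 (SE 0.76, limma adjusted p = 0.89), less than the spread within either model, and by -0.10 without shRNA OS replicate 2. The 20 flanking genes on chromosome 7 deviated on average by 0.033 in shRNA OS replicate 2 and -0.047 in Cre:lox OS replicate 4, where Igf2 deviated by 2.20 and 1.63. The 2 tumours did not share the state of Grb10, which was 11.33 in shRNA OS replicate 2 and 8.60 in Cre:lox OS replicate 4.

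Dlk1 encodes a transmembrane protein related to Notch ligands that holds back fat cell differentiation. It measured 8.10, 7.83, 7.39 and 7.88 in shRNA OS replicates 1 to 4, against 8.03, 8.02, 8.02 and 7.79 in Cre:lox OS replicates 1 to 4. The SD of Dlk1 was below that of most genes, at the 37.5th percentile. The difference of -0.16 (SE 0.17, 95% interval -0.54 to 0.21) did not pass (limma adjusted p = 0.831). Meg3, a long non-coding RNA from the same domain on chromosome 12 but from the opposite parental copy, measured 7.68, 7.11, 7.26 and 6.97 in shRNA OS replicates 1 to 4, against 8.04, 7.002, 7.45 and 7.10 in Cre:lox OS replicates 1 to 4. The groups overlapped, and the scapular tumour was the highest. The difference was -0.14 (SE 0.25, 95% interval -0.69 to 0.41). Of the 7 measured genes of that domain, 0 were at an unadjusted p under 0.05 between the models by limma.

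Cdkn1c encodes the cyclin-dependent kinase inhibitor p57Kip2. It measured 7.92, 7.23, 7.53 and 8.41 in shRNA OS replicates 1 to 4, against 7.47, 7.02, 7.26 and 7.93 in Cre:lox OS replicates 1 to 4. The groups overlapped widely and the difference of 0.35 (SE 0.27, 95% interval -0.26 to 0.97) did not pass. In its domain on distal chromosome 7, Kcnq1, a potassium channel gene, was the one with the smallest p, with 8.02 to 8.38 in shRNA OS and 7.60 to 7.95 in Cre:lox OS. Its difference of 0.32 (SE 0.14) had an adjusted p of 0.505 by limma.

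Ndn encodes necdin, a MAGE family protein that represses growth in neurons and other cells. It measured 7.30, 6.34, 8.43 and 6.28 in shRNA OS replicates 1 to 4, against 7.03, 6.40, 6.50 and 6.18 in Cre:lox OS replicates 1 to 4. A single tibial tumour, shRNA OS replicate 3, was 1.13 above the next. The difference of 0.56 (SE 0.44, 95% interval -0.42 to 1.54) did not pass, and was 0.11 without that tumour. All 20 genes that flank Ndn on chromosome 7 had a higher mean in shRNA OS, by 0.061 to 0.74 with a median of 0.20, where 51.9% of all genes had a higher mean. The mean deviation of the genes that flank Ndn was 0.0735 to 0.25 in shRNA OS tumours, largest in replicate 3. In Cre:lox OS tumours it was -0.20 to -0.11. Of the genes that flank Peg3, elsewhere on chromosome 7, 18 of 20 had a higher mean in shRNA OS, with a median difference of 0.12. The mean deviation of the 20 that flank Peg3 was largest in shRNA OS replicate 2 (0.21), against -0.0915 to 0.086 in the other shRNA OS tumours. It was 0.076 in Cre:lox OS replicate 3 and negative in the other Cre:lox OS tumours. The counts of flanking genes were not repeated without shRNA OS replicate 2.

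Peg3 encodes a zinc finger protein of muscle and other progenitor cells. It measured 6.90, 6.89, 7.35 and 6.80 in shRNA OS replicates 1 to 4, against 7.46, 6.44, 7.01 and 7.16 in Cre:lox OS replicates 1 to 4. The highest and lowest Peg3 values were both in Cre:lox OS, and the difference of -0.031 (SE 0.22, 95% interval -0.53 to 0.47) was far within the spread. The 4 tumours with most Peg3 were also the 4 with the highest average level of 15 skeletal muscle markers. That level was 8.22, 7.37, 9.68 and 7.71 in shRNA OS replicates 1 to 4, against 9.55, 7.70, 9.80 and 8.65 in Cre:lox OS replicates 1 to 4. The part of muscle in the Peg3 values was not tested.

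**Figure D3:**
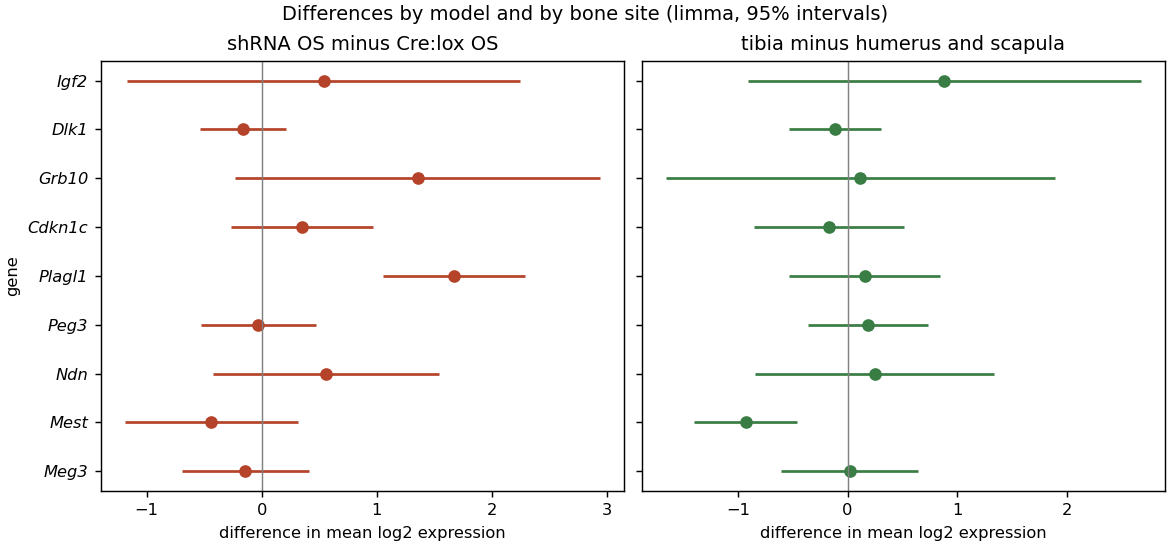
Differences in mean log2 expression of the 9 genes, shRNA OS minus Cre:lox OS (left) and tibia minus the other bones, adjusted for model (right), with limma's 95% intervals, which are not adjusted for the number of genes. The interval excludes 0 for Plagl1 between models (1.05 to 2.29) and for Mest between sites (-1.40 to -0.46), and no gene passed after adjustment.

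Mest encodes a membrane protein of the alpha/beta hydrolase fold that is tied to the growth of fat tissue in the mouse. It measured 10.68, 10.62, 9.94 and 11.12 in shRNA OS replicates 1 to 4, against 11.53, 11.62, 10.57 and 10.40 in Cre:lox OS replicates 1 to 4. Between the models it differed by -0.44 (SE 0.34, limma adjusted p = 0.755), and the groups overlapped.

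By bone, Mest was the gene of the 9 that stood out. The 5 tibial tumours lay between 9.94 and 10.68, and the humeral and scapular tumours measured 11.12, 11.53 and 11.62. Every tibial tumour was below every other tumour, which held in either direction for 2.6% of all genes (0.607% with tibia higher and 2% with it lower). The mean was 10.44 ± 0.30 in tibial tumours (SD, n = 5) and 11.43 ± 0.27 in the others (SD, n = 3). With the model as a covariate the difference was -0.93 (SE 0.21, 95% interval -1.40 to -0.46), or 1.90-fold lower in the tibia, with an unadjusted p of 0.00161, the 50th smallest of all genes by limma. The adjusted p was 0.639, so Mest did not pass. Leaving out each tumour in turn gave differences from -1.09 to -0.84.

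All 4 other measured genes of the Mest domain on chromosome 6 also had lower means in tibial tumours. Over the 5, the median difference was -0.15 with the model as a covariate. Of the 20 flanking genes 16 had lower means and 4 higher, with a median of -0.072 and no covariate. With the model as a covariate, 55.5% of all genes were lower. The average level of 8 measured adipocyte markers followed the same split. It was 7.23 to 7.58 in the 5 tibial tumours and 7.66 to 7.78 in the other 3. With the model as a covariate 6 of the 8 were lower in tibial tumours. The adipocyte regulator Pparg led them, at -1.44 (SE 0.21, limma adjusted p = 0.375), followed by Fabp4 at -0.80 (SE 0.28, limma adjusted p = 0.758). Adipoq (-0.016) and Plin1 (-0.013) hardly differed, and Cebpa (0.11) and Lep (0.027) were higher. Other marker lists were also read with the model as a covariate. Tibial tumours were higher for 15 of 15 skeletal muscle and 8 of 10 macrophage markers, beside 44.5% of all genes. They were lower for 8 of 9 osteoclast markers (median difference -1.28), 7 of 8 endothelial and 6 of 6 osteoblast markers. None of the genes in these 5 lists passed by limma. At an unadjusted p under 0.05 there were 0 skeletal muscle, 7 macrophage and 1 osteoclast markers, beside 5.64% of all genes. There were also 2 of the osteoblast markers and 1 endothelial marker, Vwf, which was higher in tibial tumours (0.40, SE 0.15). Average osteoclast marker levels were 8.70 to 11.35 in tibial tumours and 10.96 to 11.19 in the others. The part of any of these in the Mest difference was not tested.

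None of the 9 genes passed limma's adjusted threshold between sites, and neither did any of the 19938 genes (0%). At an unadjusted p under 0.05 there was 1 of the 9, Mest, against 5.64% of all genes (2.32% higher and 3.33% lower in the tibia). Apart from Mest, the difference closest to the threshold was that of Igf2, with 8.91 ± 1.496 in tibial tumours (SD, n = 5) and 7.94 ± 0.62 in the others (SD, n = 3). It was 0.88 (SE 0.79, limma adjusted p = 0.999) and it depended on single tumours: 0.54 without shRNA OS replicate 2, and, of the Cre:lox OS tumours, 0.20 with replicate 4 left out and 1.42 with replicate 3 left out. Plagl1 (0.16, SE 0.30) and Grb10 (0.11, SE 0.78) had differences smaller than their errors. Whether the site difference of a gene depended on the model was tested with an interaction term, in which 1 tumour alone stood for shRNA OS outside the tibia. No gene of the 9 passed (limma adjusted p of 1 for each), and Cdkn1c had the smallest unadjusted p, 0.0428 by limma.

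Whether the 9 genes varied together between tumours was asked with their 36 pairs. Pearson's r ran from -0.56 to 0.69 with a median of -0.013, and 17 pairs were above and 19 below 0. No pair passed an exact permutation test over the 40320 orders of the tumours after Benjamini-Hochberg adjustment over the 36 pairs (smallest adjusted p = 0.661 for r and 0.4996 for Spearman's rho). Unadjusted, 1 pair was under 0.05 by r and 3 by rho. A correlation within 1 model would rest on 4 tumours and is not given.

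The pair with the largest r was Dlk1 and Mest, with r = 0.69 (exact permutation p = 0.049, adjusted p = 0.661) and rho = 0.74 (exact permutation p = 0.0458, adjusted p = 0.4996). It rested on the extreme tumours: without the 2 farthest from the Dlk1 median r was 0.16. The domain partners Dlk1 and Meg3 had r = 0.37 (exact permutation p = 0.365, adjusted p = 0.661) and rho = 0.45 (exact permutation p = 0.268, adjusted p = 0.873), with r = 0.62 without the 2 farthest. Igf2 and Plagl1 had r = 0.043 (exact permutation p = 0.913, adjusted p = 0.973) and rho = 0.14 (exact permutation p = 0.752, adjusted p = 0.873). Without the 2 tumours farthest from the Igf2 median r was 0.46, and it was -0.39 once each model was centred on its own mean. Plagl1 and Cdkn1c had r = 0.38 (exact permutation p = 0.347, adjusted p = 0.661) and rho = 0.31 (exact permutation p = 0.462, adjusted p = 0.873), with r = 0.55 without the 2 farthest and 0.026 after centring. Meg3 and Peg3 had r = 0.60 (exact permutation p = 0.119, adjusted p = 0.661) and rho = 0.69 (exact permutation p = 0.0694, adjusted p = 0.4996), with r = 0.55 without the 2 farthest. Igf2 and Cdkn1c, both on distal chromosome 7, had r = 0.11 (exact permutation p = 0.793, adjusted p = 0.95) and rho = 0.26 (exact permutation p = 0.536, adjusted p = 0.873), with r = 0.53 without the 2 farthest.

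**Figure D4:**
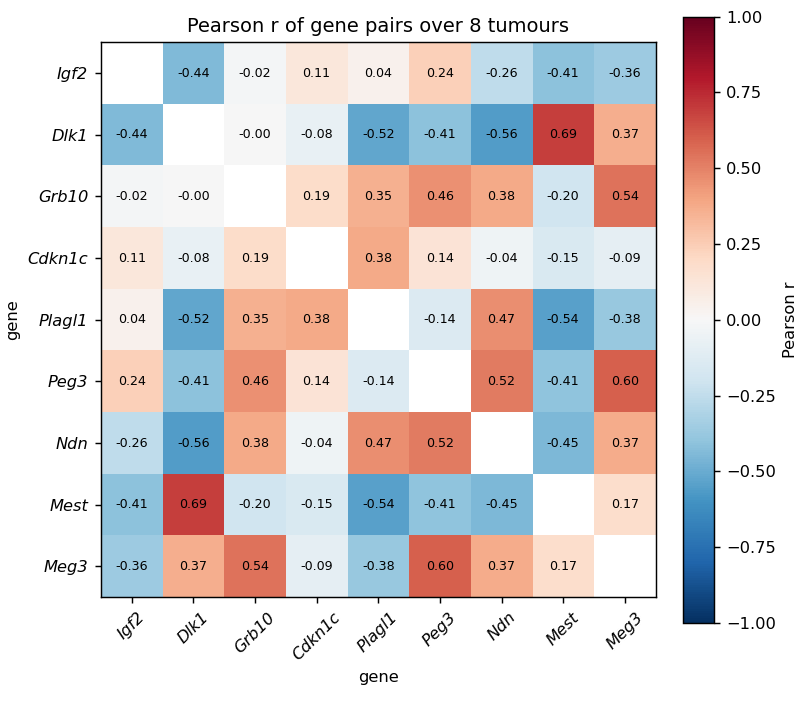
Pearson's r over the 8 tumours for each pair of the 9 genes, from blue (negative) to red (positive). The largest is 0.69 for Dlk1 and Mest and the lowest -0.56 for Dlk1 and Ndn, and no pair passed the adjusted permutation test.

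The genes whose values across the 8 tumours were most like each member's were sought among 9745 genes of above-median level, and the r values describe a search over that many genes. For Grb10 they were Snord95, a small nucleolar RNA gene (r = 0.94), and Car3, a carbonic anhydrase gene (r = 0.94). Spearman's rho was 0.98 for Snord95 and 0.43 for Car3. Car3 had 12.84 to 13.40 in shRNA OS, against 12.50, 10.64, 12.74 and 11.14 in the Cre:lox OS tumours, replicates 1 to 4. Car3 was lowest in the same pair of tumours as Grb10, which a search by r favours. For Plagl1 they were Usf2, a helix-loop-helix transcription factor gene, and Josd2, a deubiquitinase gene (r = 0.96 each). For Igf2 they were Get3, whose product inserts tail-anchored membrane proteins, and Ubqln2, a ubiquitin-binding shuttle protein gene (r = 0.95 each). Get3 was highest in the same pair of tumours as Igf2, which the search by r also favours. It had 10.44 in shRNA OS replicate 2 and 10.50 in Cre:lox OS replicate 4, but its whole range began at 9.89. For Mest they were Rtn4r, the Nogo receptor gene, and Prpf19, a splicing factor gene (r = 0.95 each). For Ndn they were Mrpl48 and Mdh2, of mitochondrial ribosomes and the citric acid cycle (r = 0.97 and 0.96). For Cdkn1c they were Ralgapa1 and Rad51d (0.97 and 0.95), for Meg3 Mgat1 and Ppp2r1b (0.96 and 0.95), for Peg3 Wdr7 and Pcdhb18 (0.96 and 0.93), and for Dlk1 Dcun1d3 and BC085271 (0.95 and 0.94).

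Other imprinted genes gave no call either. Of 68 listed, 55 were measured, many of them imprinted only in some tissues. Between the models the shRNA OS mean was higher for 37 and lower for 18, beside 51.9% and 48.1% of all genes. The median difference was 0.087, beside 0.0090 over all genes, and 0 passed limma's adjusted threshold. At an unadjusted p under 0.05 there were 6 of the 55, beside 9.63% of all genes. Trappc9, a vesicle-tethering gene with the smallest p, measured 8.88, 9.996, 9.50 and 9.69 in shRNA OS replicates 1 to 4, against 8.01, 8.05, 8.16 and 8.60 in Cre:lox OS replicates 1 to 4. The groups did not overlap, which held for 3 of the 55 and 5.44% of all genes. The Trappc9 difference was 1.31 (SE 0.24, limma adjusted p = 0.134). Peg10, a paternally expressed gene derived from a retrotransposon and chosen after its values were seen, had 9.45 to 10.31 in shRNA OS and 7.78 to 10.14 in Cre:lox OS, with a difference of 1.10 (SE 0.47, limma adjusted p = 0.484).

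By bone, with the model as a covariate, 25 of the 55 were higher and 30 lower in tibial tumours. Over all genes 44.5% were higher and 55.5% lower. Of the 55, 0 passed limma's adjusted threshold and 2 were under an unadjusted 0.05 (5.64% of all genes). Dcn, which encodes the proteoglycan decorin and is imprinted in mouse placenta, led them. It had 10.42 to 12.67 in tibial tumours and 8.19 to 10.09 in the others, a difference of 2.59 (SE 0.39, limma adjusted p = 0.375). Of 12 fibroblast and mesenchymal progenitor markers 10 were also higher in tibial tumours with the model as a covariate, beside 44.5% of all genes. The part of these markers in the Dcn difference was not tested.

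Of the 18 measured partners of IGF2 signalling, the shRNA OS mean was higher for 8 and lower for 10, and 0 passed by limma, with 3 at an unadjusted p under 0.05 (9.63% of all genes). Gpc3, a cell surface proteoglycan whose loss causes overgrowth in mice and humans, measured 10.19, 10.18, 9.37 and 10.42 in shRNA OS replicates 1 to 4, against 7.37, 8.72, 7.80 and 5.88 in Cre:lox OS replicates 1 to 4. The groups did not overlap, which held for 1 of the 18 and 5.44% of all genes. The Gpc3 difference was 2.60 (SE 0.51, limma adjusted p = 0.156). Igf2bp3, an IGF2 mRNA-binding protein gene named after its values were seen, was 8.83 in shRNA OS replicate 1 and 5.39 to 5.93 in the other 7 tumours. Igf1r and Igf2r were also named after their values were seen. Igf1r, the receptor through which IGF2 signals, measured 9.85, 7.69, 10.23 and 10.34 in shRNA OS replicates 1 to 4, against 8.30, 8.32, 7.81 and 10.06 in Cre:lox OS replicates 1 to 4. It was thus low in shRNA OS replicate 2 and high in Cre:lox OS replicate 4, the tumours with most Igf2. Igf2r, the imprinted receptor that clears IGF2, lay between 9.89 and 11.06 in all 8 tumours. By bone, with the model as a covariate, 6 of the 18 were higher and 12 lower in tibial tumours. Over all genes 44.5% were higher and 55.5% lower. Igf1 led the 18, with 8.94 to 9.52 in tibial tumours and 8.09 to 8.49 in the others (difference 0.93, SE 0.18, limma adjusted p = 0.616).

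Of 17 factors that keep up DNA methylation at imprints or act on it, the shRNA OS mean was higher for 10 and lower for 7, 0 passed by limma and 1 was under an unadjusted 0.05 (9.63% of all genes). This was Tet1, which oxidises methylated cytosine, with 8.19 to 8.94 in shRNA OS and 6.67 to 8.01 in Cre:lox OS and a difference of 1.25 (SE 0.30, limma adjusted p = 0.235). By bone, with the model as a covariate, 4 of the 17 were higher and 13 lower in tibial tumours. Over all genes 44.5% were higher and 55.5% lower. Of the 17, 0 passed by limma, with 2 under an unadjusted 0.05 (5.64% of all genes). Tet3 had the smallest p there, with a difference of -0.41 (SE 0.17, limma adjusted p = 0.852).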

How the data were processed

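RNA of 8 tumours was read on 1-colour arrays. The authors deposited log2 values from RMA, and the submitters' processing notes also name mm9; no version is given in the sources used here. Probe sets with 1 symbol in the platform annotation were used (21789 of 35556, with 1621 of several symbols and 12146 unnamed), the highest-mean one per gene. RefSeq tables, of another build, gave gene order and start regions.

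Differences were fitted over all 19938 genes with limma 3.58.1 in R 4.3.3, with Benjamini-Hochberg adjustment and no filter on dim genes. By bone, the model was a covariate. The fit was tested on simulated data. The number of arrays limits the precision. The titles name separate tumours, and replicate numbers follow accession order only.

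Members, lists and tests were chosen with earlier results of these data known. Named were the gene of smallest p in each list between models and, for each member, the 2 genes of highest r, leaving out unnamed gene models, olfactory, vomeronasal and receptor segment genes, Y-linked genes and Xist. Those of smallest p by bone, and the 10 measured flanking genes on each side, were chosen after seeing the data. With 9 genes measured, 36 pairs were tested. Alternatives were other normalizations, filters, probe set rules, variance models, covariates and subsets of tumours.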

Additional observations from a re-analysis of the deposited data

Results flagged for a closer look

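In each model, and among the 5 tibial tumours, the most distant value of each of the 9 genes was set against the rest by Dixon's 95% critical value. Of 27 such tests 2 passed, where chance alone gives about 1 in 20. Dlk1 was 7.79 in Cre:lox OS replicate 4, against 8.02 to 8.03 in the other 3 Cre:lox OS tumours, a small gap beside a very narrow group. Grb10 was 8.60 in Cre:lox OS replicate 4, against 10.99 to 11.42 in the other 4 tibial tumours.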

How the results depend on the processing

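No paired analysis was possible because the labels give the tumours of the 2 models no shared replicate numbers. The count of the 9 genes past limma's adjusted threshold between the models was 0, and became 1, Plagl1, with array weights and also 1 with Rb genotype as a covariate; between sites it was 0 under every alternative run. Leaving out each tumour gave 0 in both comparisons. The count of correlated pairs was 0. It became 1 with values centred within each site class (Dlk1 and Mest, r = 0.89, adjusted permutation p = 0.0464, a p that does not allow for the centring). It ran from 0 to 1 over leaving out each tumour, with Peg3 and Mest (r = -0.98, adjusted exact permutation p = 0.0143) without Cre:lox OS replicate 1. Differences between the models changed sign in the Rbfl/+ tumours alone for Igf2 (-0.16), Meg3 (0.12) and Peg3 (0.15), and in the tibial tumours alone for Meg3 (0.077) and Cdkn1c (-0.034). Between sites Grb10 was -0.062 with array weights and Meg3 -0.019 with no covariate. None of these was past the threshold on either side, and the cause was not tested. Over leaving out each tumour, the difference between models ran from -0.10 to 1.17 for Igf2, -0.28 to 0.072 for Meg3 and -0.22 to 0.12 for Peg3. Between sites it ran from 0.20 to 1.42 for Igf2, -0.25 to 0.33 for Meg3, -0.38 to 0.54 for Ndn, -0.44 to 0.35 for Cdkn1c, -0.11 to 0.41 for Plagl1, -0.043 to 0.44 for Peg3 and -0.69 to 0.94 for Grb10. The r of Igf2 and Plagl1 was -0.39 centred by model and -0.090 centred by site class, and -0.065 to 0.27 over leaving out each tumour, and that of Igf2 and Cdkn1c -0.12 to 0.49. Genes called over the whole array ranged from 0 to 42 between models, with 42 without shRNA OS replicate 1. Without shRNA OS replicate 2, an alternative chosen after seeing the data, 35 of the other imprinted genes had a higher mean in shRNA OS, and 4 were under an unadjusted 0.05 by bone. Quantile normalization and a common median moved the median of all genes by less than 0.1.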
